A study of Mus musculus with 6 samples.

Results

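Matricellular proteins and the enzymes that crosslink collagen were examined through the chromatin regions assigned to 10 genes: Postn, Fn1, Lox, Loxl1, Loxl2, Loxl3, Loxl4, Sparc, Tnc and Thbs1. The members were all regions that the authors' annotation gave to these gene symbols in 4 tables, without regard to their signal, and they numbered 83 of 456310 regions. The data came from 6 CUT&Tag libraries of primary mouse cardiac fibroblasts, in which an antibody tethers a transposase to chromatin and reads accumulate around the bound protein. The libraries formed a T set and an S set of 3 each, with 1 library for the control treatment NC, 1 for TGF-b and 1 for TGF-b with an siRNA. The siRNA was labelled SiTAZ for T and SiSRF for S. The study's text instead described an siRNA against Piezo2, a mechanosensitive channel, so its target is uncertain here. The study profiled TAZ, a coactivator of TEAD factors, and SRF, a factor that binds CArG boxes. T was taken for TAZ and S for SRF, an inference, because no label named the antibody. The series text mentioned deletion of Tet3 by a Cre virus before TGF-b, but the labels of these libraries did not give it, nor did they give strain, age, dose or duration. The question put to the libraries was how TGF-b changed the occupancy of TAZ and SRF, and whether the siRNA changed it again.

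Matricellular proteins are secreted into the extracellular matrix but act mainly by tuning how cells, growth factors and collagen fibres interact, and many are scarce in the healthy heart and abundant in scar. Lysyl oxidases oxidise lysine residues of collagen and elastin so that neighbouring chains become covalently linked, which stiffens the matrix. Both are typical products of the myofibroblast, the contractile and matrix-secreting cell that fibroblasts become when TGF-b acts on them.

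The T set held 72 of the 83 regions and the S set 11, and windows that overlapped reduced them to 50 distinct loci. Tnc had 16 regions, Postn 14, Fn1 12, Sparc 11, Lox 9, Loxl1 8, Loxl3 6, Loxl4 5 and Thbs1 2, and none of the 4 tables gave a region to Loxl2. Of all members, 29 lay inside another annotated gene. Of the 14 Postn regions, 9 lay in Trpc4, the neighbour upstream. Of the 16 Tnc regions, 13 were annotated to 8030451A03Rik on the opposite strand, and 7 of the 9 Lox regions lay in another annotated gene, AC161119.1. The regions in Trpc4 and AC161119.1 lay upstream of Postn and Lox, and their assignment to these genes rests on distance. CUT&Tag reads carry no strand, so the regions shared by Tnc and 8030451A03Rik cannot be told apart between the pair.

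Promoter sequences are shown for Tnc, Sparc and Loxl4, because a T or S region had its summit within 1 kb of each of these starts and the sequence table, credited to RefSeq on GRCm38.p6, held them. It held 6 promoters of 4 member genes, the other being Postn. Tnc had 2 that overlap, with starts 79 bp apart, and the upstream one is shown. Each run covers 250 bases before to 50 bases from the start, 5′ to 3′ on the gene's strand. Capitals mark a SMAD half-site CAGACA on either strand, which reads TGTCTG where it lies on the opposite strand. SMAD proteins carry the TGF-b signal to DNA.
Tnc, chr4:64046966-64047265, minus strand: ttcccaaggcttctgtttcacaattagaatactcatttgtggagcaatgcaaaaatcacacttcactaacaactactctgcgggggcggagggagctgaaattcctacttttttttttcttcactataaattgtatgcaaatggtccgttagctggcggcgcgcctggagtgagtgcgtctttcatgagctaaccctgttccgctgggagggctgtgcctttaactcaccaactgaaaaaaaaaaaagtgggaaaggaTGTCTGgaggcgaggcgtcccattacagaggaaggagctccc
Sparc, chr11:55420031-55420330, minus strand: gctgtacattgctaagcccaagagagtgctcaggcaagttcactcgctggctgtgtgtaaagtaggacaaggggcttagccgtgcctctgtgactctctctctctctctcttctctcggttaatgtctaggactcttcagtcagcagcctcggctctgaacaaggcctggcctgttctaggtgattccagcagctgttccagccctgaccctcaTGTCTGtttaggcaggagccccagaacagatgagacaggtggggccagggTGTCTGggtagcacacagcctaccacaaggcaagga
Loxl4, chr19:42612757-42613056, minus strand: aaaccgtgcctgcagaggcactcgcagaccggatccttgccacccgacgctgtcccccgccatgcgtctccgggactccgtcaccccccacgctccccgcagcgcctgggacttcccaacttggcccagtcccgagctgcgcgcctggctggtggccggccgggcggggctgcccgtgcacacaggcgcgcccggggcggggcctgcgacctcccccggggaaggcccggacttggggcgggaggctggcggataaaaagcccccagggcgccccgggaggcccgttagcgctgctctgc
The Tnc promoter shown held 1 half-site, at 9 to 14 counted from the start as 1. The Tnc promoter 79 bp downstream held that same half-site at -71 to -66 and another at 40 to 45, and the Sparc promoter held 2, at -36 to -31 and at 15 to 20. The Loxl4 promoter held none and was rich in G and C, at 75.0% against a median of 52.7% over 32851 promoters. Of the 6 member promoters, 3 held CAGACA, of which 2 were the overlapping Tnc promoters, against 21.0% of all promoters of this length. None of the 6 held the TEAD motif GGAATG (14.7% of all promoters), a CArG box (1.63%), the AP-1 motif TGANTCA (7.81%) or the SMAD palindrome GTCTAGAC (0.213%), each searched on both strands. These counts describe letters in a window of 300 bases, and no occupancy follows from them.

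The table values were normalised read densities of 2 kb windows, so levels can be compared between genes per length, and from them whole reads were recovered. Before the authors' line was applied, a step of 0.5 in density corresponded to 1 read. All ratios are log2 of the second over the first library of a table on the authors' normalised scale, in brackets with a 95% counting interval. With 1 library per treatment no test between treatments was possible, and the intervals cover counting error only, not the spread between cultures. Each region entered a table because it was called in at least 1 of its 2 libraries, and the intervals do not allow for that choice. For TGF-b against NC in the T set, 117769 of all 170890 regions were called in NC alone and 43854 in TGF-b alone. For the 37 members there, these counts were 23 and 11. Fewer cells with the protein bound and less protein bound per cell cannot be told apart. Called regions were shallow, with a median of 7 to 13 reads in the library in which they were called. In the T set, 5 of 7 fibroblast markers had a region within 1 kb of a start (Col1a1, Col1a2, Dcn, Pdgfra and Vim), and so did 2 of 3 cardiomyocyte, 1 of 2 endothelial and 1 of 2 leukocyte markers. The highest density there was 17.2 for fibroblast markers and 7.5, 19.5 (Cdh5) and 3.7 for cardiomyocyte, endothelial and leukocyte markers. In the S set the counts were 1 of 7, 1 of 3, 0 of 2 and 0 of 2. Occupancy of a promoter does not identify a cell type, and the part of other cells in the results was not tested.

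With TGF-b against NC in the T set, 37 member regions of 9 genes were measured. Of these, 4 were at least 2-fold higher with TGF-b (10.8%), beside 17.3% of all 170890 regions. A further 13 were at least 2-fold lower (35.1%), beside 42.1% of all regions. Centring, which takes the median of all regions from every ratio, gave 9 higher and 10 lower, beside 26.7% and 27.2% of all regions on that scale. The counting interval lay above 0 for 6 members and below 0 for 12, beside 14.8% and 31.1% of all regions, and it included 0 for 19. The median log2 ratio was -0.69 for the members and -0.65 for all regions. The medians were less alike by position. Within 1 kb of the authors' nearest start they were -0.69 for 9 members and 0.09 for all such regions. Elsewhere they were -0.58 for 28 members and -0.8 for all other regions. Regions close to a gene start were common among them, with 24.3% within 1 kb of the nearest start against 10.2% of all regions. Their median mean density was 5.52 reads per kb, against 3.99 for all regions.

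**Figure D1:**
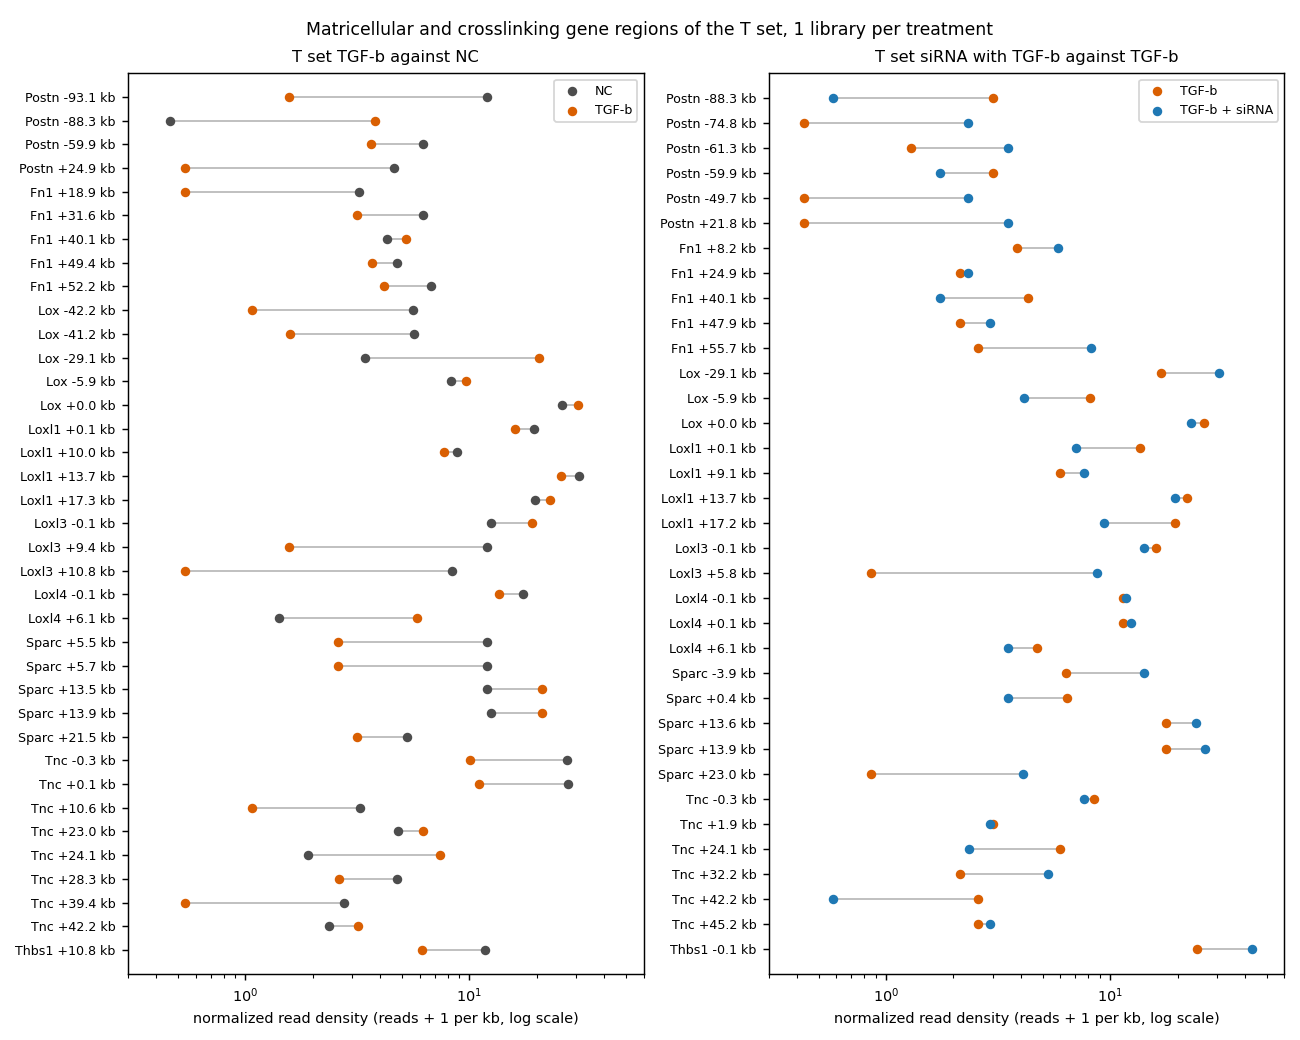
Normalised read density (log scale, reads plus 1 per kb) of each T set region of the matricellular and crosslinking genes, in NC and TGF-b (left, 37 regions) and in TGF-b and TGF-b with siRNA (right, 35 regions), 1 library each. Rows are named by gene and distance from the RefSeq start. The start regions of Lox, Loxl1, Loxl3, Loxl4 and Tnc stand to the right of most others, and the Tnc pair shows the widest gap between NC and TGF-b among the start regions.

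Within 1 kb of a RefSeq gene start lay 6 of the 37 regions, at Lox, Loxl1, Loxl3, Loxl4 and Tnc, with a median mean density of 18.24 reads per kb (range 15.49 to 28.22). The other 31 had a median of 4.76 (range 1.65 to 28.28), with the highest in intron 1 of Loxl1. All regions of the table within 1 kb of the authors' nearest start were denser as well, with a median of 8.18 against 3.79 for the rest. Of these 6, none was 2-fold higher and 2 were 2-fold lower, both at Tnc and in windows that shared 1639 bp. Centred, 1 was higher (Loxl3) and 0 were lower, beside 40.4% and 11.6% of all regions within 1 kb of the authors' nearest start. Of the 31 regions elsewhere, 4 were higher and 11 lower. All regions within 1 kb of the authors' nearest start were higher in 21.4% and lower in 20.9%, and all others in 16.9% and 44.5%. Of the 4 T regions that carried a promoter label but lay beyond 1 kb of the gene's RefSeq start, 2 were at Fn1, 1 at Thbs1 and 1 at Sparc, at starts of other transcripts.

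Lox, the founding lysyl oxidase, had the densest start region of the enzymes. At chr18:52662681-52663138 in the 5' UTR (ENSMUSG00000024529; 30 bp from the start), NC held 50 reads, TGF-b 61 and TGF-b with siRNA 38. Densities were 25.85 in NC and 30.58 in TGF-b, and where TGF-b was normalised with the siRNA library they were 26.23 and 23.05. Both intervals included 0, with log2 ratios of 0.24 (-0.29 to 0.78) for TGF-b and -0.19 (-0.78 to 0.38) for the siRNA. The values depended on the scaling, as centring on the median of all regions gave 0.89 and -1.16. A distal region lay 29107 bp upstream of Lox. At chr18:52691860-52692232, in intron 1 of AC161119.1, the NC library held 6 reads, TGF-b 39 and the siRNA library 51. NC was thus the low library, and the densities of 3.42 and 20.50 gave a log2 ratio of 2.59 (1.57 to 3.98) for TGF-b. This was the only member region with at least 20 reads, a rise of at least 2-fold and an interval above 0 in that comparison. For the siRNA the ratio was 0.86 (0.27 to 1.47), which became -0.11 when centred on the median of all regions. Another Lox region, 5928 bp upstream, held 16, 18 and 6 reads in NC, TGF-b and siRNA, with ratios of 0.22 (-0.72 to 1.19) and -0.98 (-2.41 to 0.17). The 2 most distal Lox regions, 41186 and 42234 bp upstream, held 11 reads each in NC against 2 and 1 in TGF-b, with ratios of -1.84 (-4.30 to -0.29) and -2.40 (-5.87 to -0.69), and their windows shared 952 bp.

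Loxl1, a lysyl oxidase needed for elastin fibres, had 4 T regions per table, all dense, and no S region. Its densest region, at chr9:58206695-58206887 in intron 1 of 6 (ENSMUSG00000032334), held 60, 51 and 32 reads in NC, TGF-b and siRNA. The ratios were -0.27 (-0.81 to 0.26) and -0.18 (-0.82 to 0.44), so neither interval left 0. Centring gave 0.38 and -1.15. The start region in the 5' UTR, chr9:58220294-58220443, held 38, 31 and 11 reads. Its ratio was -0.28 (-0.97 to 0.39) for TGF-b and -0.95 (-2.00 to -0.05) for the siRNA, which stood just under 2-fold. In intron 2, a region 17343 bp from the start held 38 reads in NC and 45 in TGF-b (0.22, -0.39 to 0.85). Its neighbour at chr9:58203264-58203349 in the second table held 45 in TGF-b and 15 with siRNA, a log2 ratio of -1.05 (-1.94 to -0.28). This was the only member region in the T set with at least 20 reads that was 2-fold lower with the siRNA and had an interval below 0 on the authors' scale. None of the 4 Loxl1 regions passed 2-fold between TGF-b and NC.

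Loxl3 and Loxl4, further members of the lysyl oxidase family, each had a promoter region in every T table. At Loxl3 (ENSMUSG00000000693), chr6:83011011-83011127, 117 bp upstream of the start, reads numbered 24, 37 and 23 in NC, TGF-b and siRNA. TGF-b was the high library, but the ratios of 0.62 (-0.09 to 1.37) and -0.19 (-0.95 to 0.53) both included 0. Centring gave 1.27 and -1.16. In intron 4 of 13 the picture was otherwise. A region at chr6:83020498-83020627 had 24 NC reads against 2 with TGF-b (-2.93, -5.39 to -1.52). Its neighbour held 17 and 0, 3.93-fold lower with reads of 3 or fewer set to 3 (log2 interval below -1.95). The pair of windows shared 528 bp. Neither appeared in the second table, where another intron 4 region, 5764 bp from the start, held 1 read in TGF-b and 14 with siRNA (3.36, 1.68 to 6.83). At the Loxl4 promoter, whose sequence is given above, the region chr19:42601220-42601399 (ENSMUSG00000025185) held 34, 26 and 19 reads, with ratios of -0.36 (-1.10 to 0.36) and 0.04 (-0.82 to 0.86). Centring gave 0.29 and -0.93. An intron 1 region of the second table, 99 bp past the start and sharing 1837 bp of window with it, held 26 reads in TGF-b and 20 with siRNA (0.11, -0.74 to 0.92). Its centred ratio was -0.86. In exon 4 of 15, Loxl4 had a sparse region with 2, 10 and 5 reads, with ratios of 2.04 (0.47 to 4.51) and -0.42 (-2.03 to 0.94).

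Tnc encodes tenascin-C, a matricellular glycoprotein that appears in wounds and remodelling tissue. At its promoter (ENSMUSG00000028364), chr4:63965429-63965591, 258 bp upstream of the start, the NC library held 54 reads, TGF-b 19 and the siRNA library 12. NC was the high library, with densities of 27.42 against 10.03 and a log2 ratio of -1.45 (-2.24 to -0.75). The adjoining 5' UTR region, chr4:63965078-63965220, held 54 and 21 reads, with a ratio of -1.32 (-2.08 to -0.64), and is nearly the same window. In that comparison the promoter region was called in TGF-b alone, though NC held more reads, and the 5' UTR region in NC alone. Centred on the median of all regions, these ratios were -0.80 and -0.67, below 0 but within 2-fold. For the siRNA the promoter densities were 8.51 and 7.64, and the ratio of -0.16 (-1.22 to 0.82) included 0. Among the 6 start regions of the T set, only these at Tnc had an interval on 1 side of 0 for TGF-b against NC. In the gene body, 24103 bp from the start, a region held 3, 13 and 3 reads, highest with TGF-b, with ratios of 1.95 (0.55 to 3.97) and -1.35 (-3.37 to 0.05). A region 42226 bp from the start held 4, 5 and 0 reads. The Tnc regions away from the start were thin, with at most 13 reads in any T library.

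Sparc encodes osteonectin, a collagen-binding matricellular protein. Its densest region was internal, at chr11:55296876-55297131 in intron 4 of 9 (ENSMUSG00000018593), with 24, 41 and 44 reads in NC, TGF-b and siRNA. NC was the low library, and the ratio was 0.76 (0.06 to 1.5) for TGF-b. For the siRNA it was 0.58 (-0.03 to 1.19). Centring gave 1.41 and -0.39, so the first passed 2-fold and the second changed sign. Regions in intron 1, at chr11:55305189-55305270 and chr11:55305385-55305454, each had 24 NC reads against 4 (-2.21, -3.94 to -1.01), and shared 1810 bp of window. Sparc therefore held regions with more reads and regions with fewer reads in TGF-b. In the second table a region 3901 bp upstream of the RefSeq start, chr11:55314775-55314840, held 14 reads in TGF-b and 23 with siRNA (1.15, 0.24 to 2.13), a ratio that centring lowered to 0.18. A region 400 bp from the start held 14 and 5 reads (-0.86, -2.44 to 0.39). In exon 8 of 10, the region nearest to a start in the table of TGF-b with NC held 10 and 5 reads (-0.74, -2.35 to 0.62).

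Thbs1 encodes thrombospondin-1, which can release TGF-b from its latent complex. Its promoter region (ENSMUSG00000040152), chr2:117942160-117942279, 138 bp upstream of the start, held 57 reads in TGF-b and 72 with siRNA, at densities of 24.50 and 43.21. The mean of these placed it at percentile 99.68 of the table, the highest among the members, and the ratio was 0.82 (0.33 to 1.32). Centring on the median of all regions turned this ratio to -0.15. The region was called in the siRNA library alone and had no row in the table of TGF-b with NC, so no NC value can be given. The Thbs1 region of that table lay 10782 bp from the start, at the start of a shorter transcript, chr2:117953076-117953203, and held 23 and 11 reads (-0.93, -2.01 to 0.02).

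Postn and Fn1 had no region within 1 kb of their RefSeq start in any table. Postn encodes periostin, a matricellular protein that marks activated fibroblasts, and its nearest region lay 3573 bp from the start. The densest Postn region of the T set was at chr3:54173543-54173676 in exon 4 of 11 of Trpc4, 93079 bp upstream of Postn (ENSMUSG00000027750), with 24 reads in NC and 2 in TGF-b (-2.93, -5.39 to -1.52). The other Postn regions in T held at most 12 reads in any library. One in intron 4 of Trpc4 held 0, 6 and 0 reads in NC, TGF-b and siRNA. With reads of 3 or fewer set to 3, it was 2.06-fold higher with TGF-b than NC and 1.29-fold lower with siRNA than TGF-b. Its log2 intervals lay above 0.88 and below -0.20. One in intron 17 of 20 of Postn itself held 9 reads in NC and 0 in TGF-b, 2.14-fold lower with that floor (log2 interval below -1.01). One 21824 bp past the start held 0 reads in TGF-b and 5 with siRNA, 2.03-fold higher with that floor (log2 interval above 0.82).

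Fn1 encodes fibronectin, the adhesive glycoprotein on which collagen fibrils assemble. Its nearest region lay 8224 bp from the start, and its T regions were spread over the gene with at most 13 reads in any library. In the table of TGF-b with NC, the densest (ENSMUSG00000026193; chr1:71640168-71640250, at the start of a shorter transcript) held 13 and 7 reads, with a ratio of -0.69 (-2.06 to 0.50). Of the 5 Fn1 regions there, 4 had an interval that included 0. In intron 24 of 44 a region held 8, 9 and 2 reads, with ratios of 0.27 (-1.03 to 1.62) and -1.29 (-3.76 to 0.32). In exon 39 of 45, a region at chr1:71636743-71636807 held 5 reads in TGF-b and 13 with siRNA (1.68, 0.41 to 3.26), a ratio that centring lowered to 0.71. The Fn1 region nearest to a start in that table, in intron 30 of 44, held 4 reads in each library (0.45, -1.42 to 2.31).

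**Figure D2:**
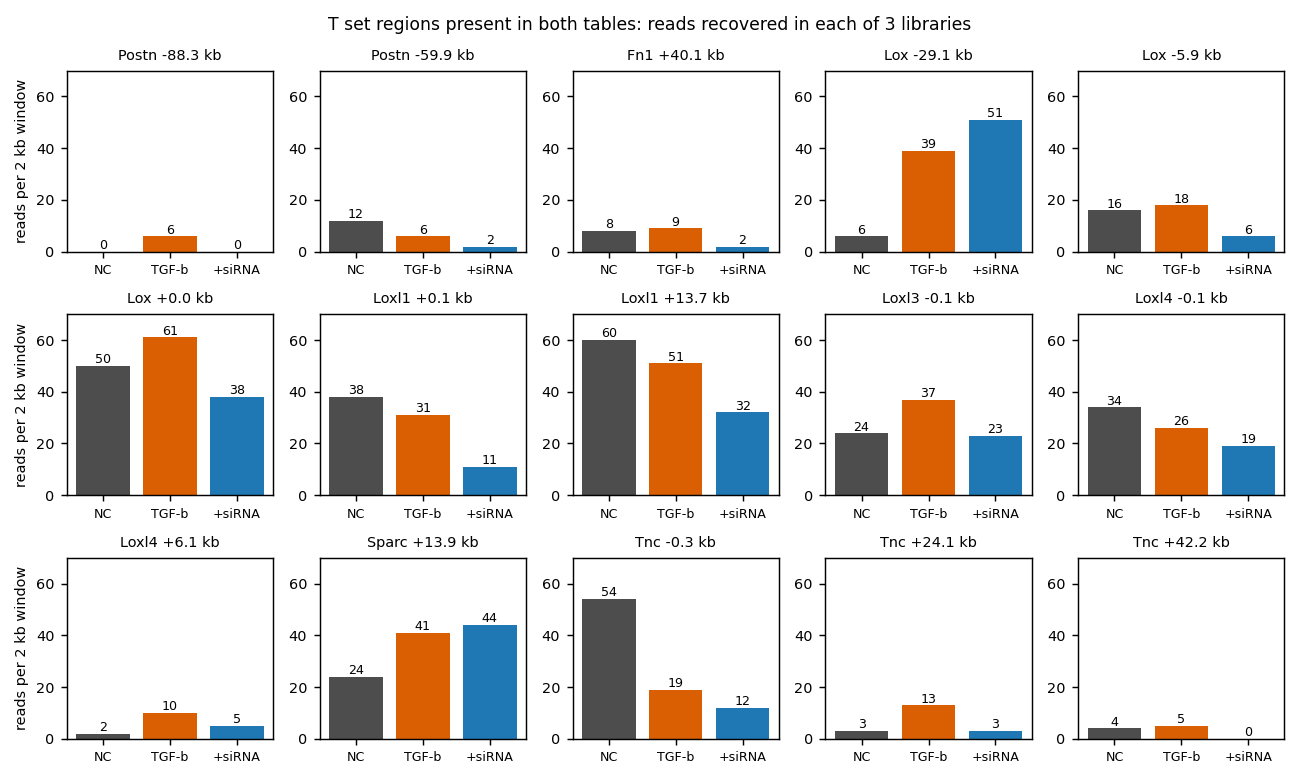
Reads recovered in NC, TGF-b and TGF-b with siRNA (bars, not scaled for depth) for the 15 T set regions that had the same coordinates in both tables, 1 library each, named by gene and distance from the RefSeq start. TGF-b was highest at the Lox start (61) and the Loxl3 promoter (37), NC at the Tnc promoter (54), and the siRNA library at the distal Lox region (51).

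With siRNA and TGF-b against TGF-b alone in the T set, 35 member regions of 9 genes were measured. At least 2-fold higher with siRNA were 9 (25.7%), beside 49.7% of all 180118 regions, and at least 2-fold lower were 5 (14.3%), beside 16.2%. Centring takes 0.97 from every ratio and gave 5 higher and 15 lower, beside 29.2% and 28.9% of all regions on that scale. The interval of the ratio lay above 0 for 9 members and below 0 for 3, beside 38.9% and 11.4% of all regions. The members' median log2 ratio was 0.12 and that of all regions 0.97, and centring took the members' median to -0.85. Of the members, 25.7% lay within 1 kb of the authors' nearest start, against 9.39% of all regions. All regions that close had a median of 0.03, against 1.11 for the rest. The members' medians were -0.16 for the 9 within 1 kb of that start and 0.40 for the 26 elsewhere. The part of position, density or read depth in the difference was not tested. The 8 member regions within 1 kb of a RefSeq start, at Lox, Loxl1, Loxl3, Loxl4, Sparc, Tnc and Thbs1, had ratios from -0.95 to 0.82, and none passed 2-fold, beside 25.1% higher and 22.2% lower among all regions within 1 kb of the authors' nearest start. Centred, 5 of the 8 were at least 2-fold lower (Lox, Loxl1, Loxl3, Sparc and Tnc), beside 48.4% of all regions that close. The 27 elsewhere included all 9 higher and all 5 lower regions, beside 52.2% higher and 15.6% lower among all regions beyond 1 kb of the authors' nearest start. Of the 9 higher regions, 4 were at Postn, 2 at Sparc and 1 each at Fn1, Loxl3 and Tnc. Of the 4 at Postn, none held more than 5 reads in either library, and 2 of them had 0 reads against 3. The comparison shares the TGF-b library with that of TGF-b against NC, and the 15 regions present in both tables had the same TGF-b reads in each.

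**Figure D3:**
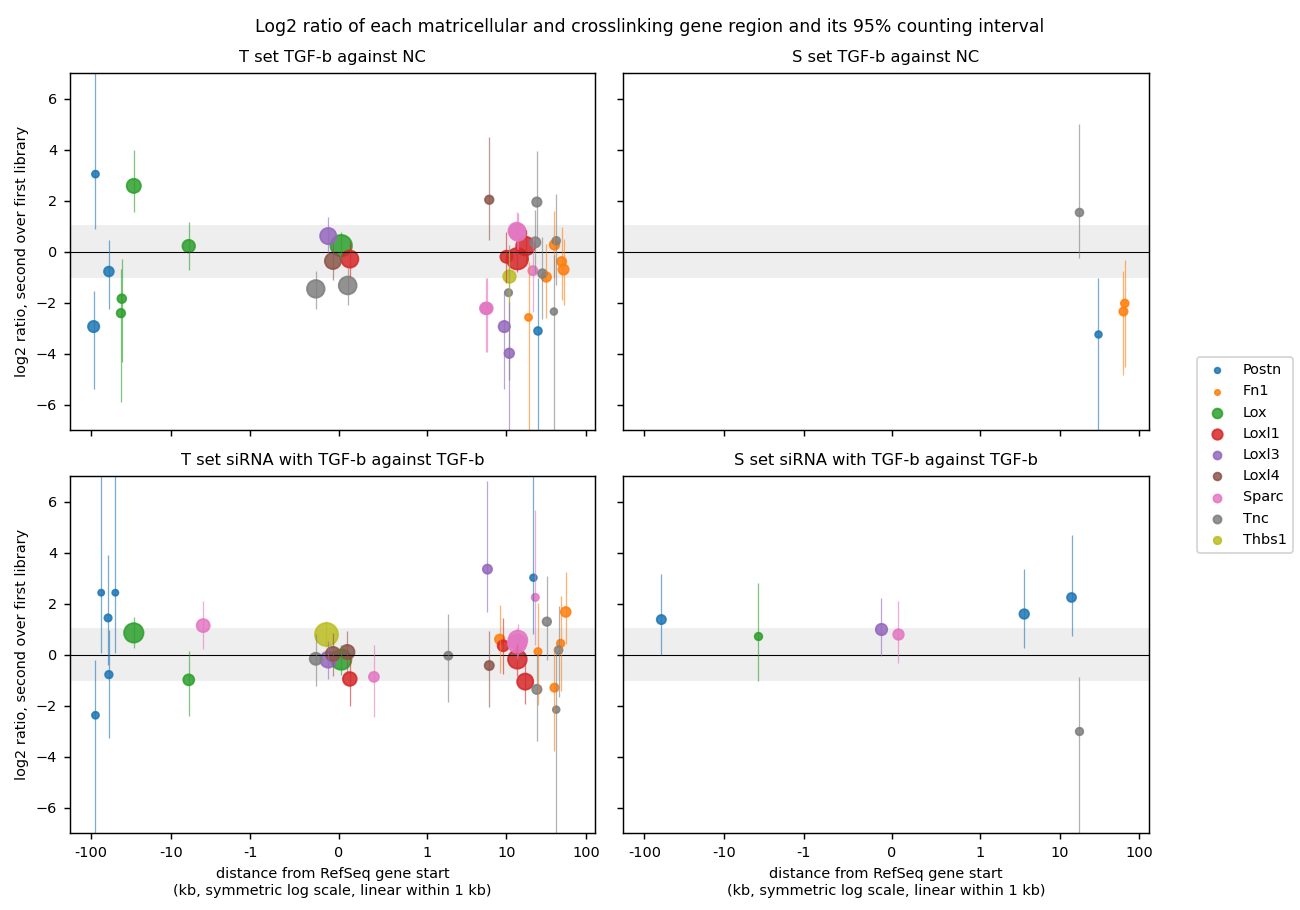
Log2 ratio of the second over the first library (vertical axis) against distance from the RefSeq gene start (kb, symmetric log scale), by gene, for the 4 comparisons. Lines are 95% counting intervals, drawn to the edge where a library held 0 reads, point area grows with reads, and the grey band is within 2-fold. The large points near the start lie in or near the band, and those beyond it are mostly small and distal, apart from the Tnc start and the distal Lox region.

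The S set held few member regions. With TGF-b against NC there were 4, of which 1 was at least 2-fold higher (25.0%), beside 17.4% of all 52723 regions, and 3 were at least 2-fold lower (75.0%), beside 26.7%. The interval lay below 0 for 3 members, beside 19.2% of all regions, and above 0 for none, beside 11.5%. All 3 lower regions were called in NC alone and the 1 higher in TGF-b alone, so the call and the direction are not independent. The median log2 ratio was -2.18 for the members and -0.20 for all regions. No library held more than 9 reads at any of the 4, so these counts rest on few reads. Near the 3' end of Fn1, in intron 43 of 44, regions at chr1:71629210-71629289 and chr1:71626735-71626830 held 9 and 7 reads in NC and 2 each in TGF-b, with ratios of -2.34 (-4.81 to -0.73) and -2.02 (-4.49 to -0.33). Postn had a region 29910 bp from its start with 5 reads in NC and 0 in TGF-b. It was 2.32-fold lower with reads of 3 or fewer set to 3 (log2 interval below -1.01).

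In the S set with siRNA and TGF-b against TGF-b, 7 member regions of 5 genes were measured. At least 2-fold higher were 4 (57.1%), beside 15.1% of all 52579 regions, and 1 was at least 2-fold lower (14.3%), beside 27.8%. The members' median log2 ratio was 1.01 and that of all regions -0.21. Of the 7, 6 were called with siRNA alone, all with a ratio above 0, and 1 in TGF-b alone, with a ratio below 0. Of the 4 higher regions, 3 were at Postn. At chr3:54270220-54270303, in intron 2 of 20 of Postn, TGF-b held 4 reads and siRNA 13 (1.60, 0.27 to 3.36). In intron 9 the reads were 2 and 12 (2.25, 0.72 to 4.71), and in intron 6 of Trpc4 they were 4 and 11 (1.38, 0.01 to 3.15). The intervals of these 3 lay above 0, beside 10.2% of all regions, that of 1 other member (Tnc, below) lay below 0, beside 21.8%, and at Postn every library held 13 reads or fewer. The Loxl3 promoter region, chr6:83011011-83011118, held 9 and 18 reads (1.01, -0.04 to 2.21). At the Sparc start, chr11:55310736-55310937 70 bp past the start whose sequence is given above, the libraries held 8 and 14 reads (0.83, -0.32 to 2.12), and centring gave 1.04. A Lox region 3775 bp upstream held 3 and 5 reads (0.73, -1.04 to 2.80). The 1 lower region lay within Tnc, chr4:63947695-63947852, and was the only member region in both S tables, with 1, 8 and 0 reads in NC, TGF-b and siRNA. It was 1.99-fold lower with siRNA with reads of 3 or fewer set to 3 (log2 interval below -0.88). Its ratio for TGF-b against NC was 1.56 (-0.23 to 5.01). The S comparisons share the TGF-b library as well.

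Member regions of the S set were set beside the T regions. With TGF-b against NC, 0 of 4 overlapped a T region by 1 bp or more, against 12.7% of all S regions. With the siRNA, 2 of 7 did, against 15.9%. One was the Trpc4 intron 6 region given to Postn, where T held 2 and 5 reads in TGF-b and siRNA (1.45, -0.39 to 3.93) beside the S values above. The other was the Loxl3 promoter, where T held 37 and 23 reads with a ratio of -0.19 and S held 9 and 18 with 1.01. Around the Sparc start the T and S summits lay 330 bp apart, with 14 and 5 reads in T and 8 and 14 in S.

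**Figure D4:**
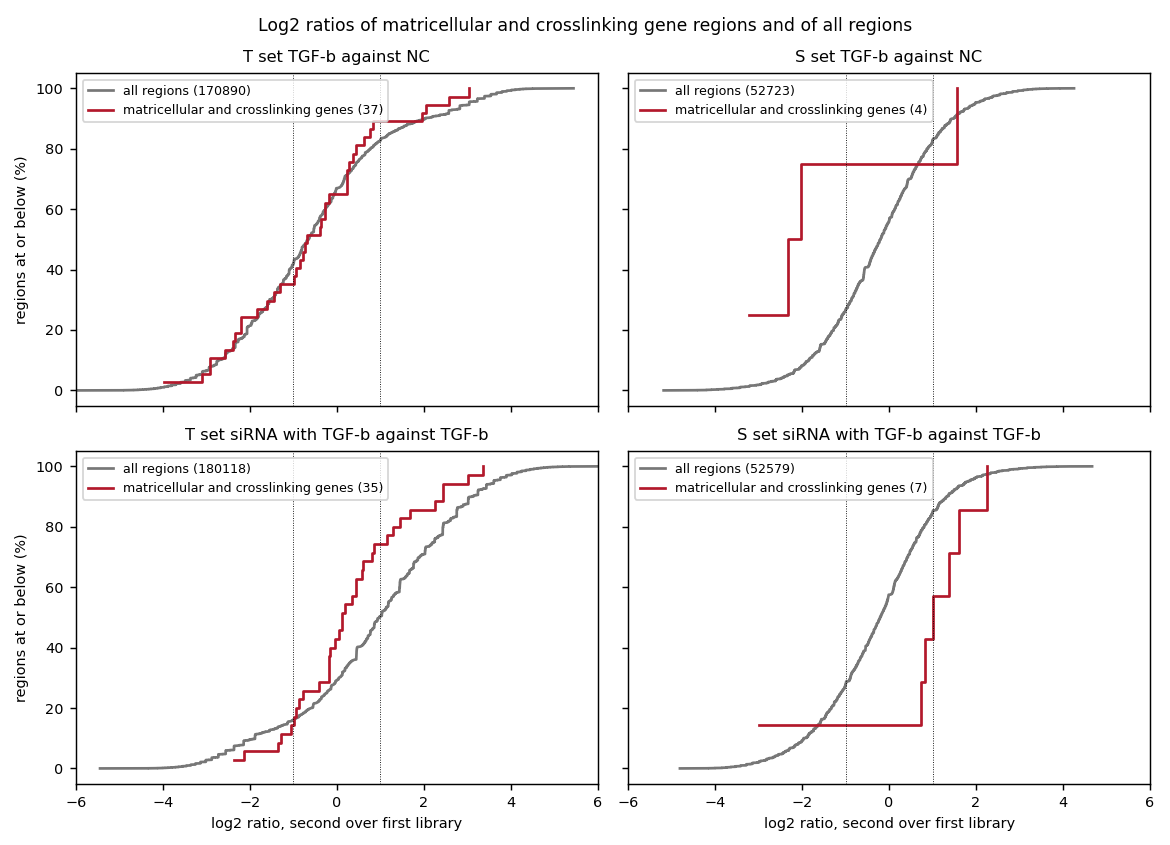
Cumulative share of regions (%) at or below each log2 ratio of the second over the first library, for the matricellular and crosslinking genes (red) and all regions of the table (grey), in the 4 comparisons. Dotted lines mark 2-fold. The curves run close together for TGF-b against NC in the T set, with medians of -0.69 and -0.65, and the red curve lies to the left for the siRNA in the T set, with medians of 0.12 and 0.97.

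Other genes of matrix assembly were counted the same way, from lists of 22 other matricellular genes, 20 other genes of collagen maturation and 11 fibrillar collagens. For TGF-b against NC in the T set, the matricellular list had 21 regions higher and 50 lower of 115, the maturation list 17 and 37 of 100, and the collagens 14 and 37 of 83. Their median log2 ratios were -0.65, -0.41 and -0.84, beside -0.69 for the members. For the siRNA in the T set, higher and lower regions numbered 48 and 14 of 108, 43 and 15 of 102, and 38 and 14 of 80, with medians of 0.67, 0.67 and 0.86, beside 0.12 for the members. In the S set with TGF-b against NC they numbered 2 and 4 of 18, 6 and 4 of 19, and 2 and 2 of 7, with medians of 0.25, 0.41 and -0.46. With the siRNA in the S set they numbered 1 and 5 of 26, 6 and 4 of 25, and 1 and 4 of 9, with medians of -0.04, 0.31 and 0.27. The lists were not tested against the members.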

How the data were processed

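CUT&Tag was done on 6 libraries of primary mouse cardiac fibroblasts, 1 per treatment in each of a T and an S set. The authors deposited 4 tables, each of 2 libraries of 1 set, with regions called in either library and a normalised read density (signal) of each library, made with a fitted line in the manner of MAnorm. Columns of the authors' own log2 fold change and unadjusted p-value were not used. The methods name GRCm39, Bowtie2 and a MACS peak caller, whereas the submitters' processing notes name mm10 and BWA 0.7.12. Coordinates are given as deposited and were taken to be GRCm39, the build of the methods. Of 30 member transcripts, 0 had the same start in GRCm38 and 30 the same length, and no start was compared with GRCm39 itself. The methods mention a DNA spike-in, and no spike-in reads were used here.

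The log2 ratio of the deposited densities was computed with Python 3.11.15, pandas 2.3.3 and numpy 2.4.6. Undoing the line returned whole reads, within 0.1 of an integer, for 99.973 to 99.992% of values. The 95% interval of a ratio takes Wilson's limits for the fraction of reads in the second library (SciPy 1.17.1) to the log2 scale, and the calculation was tested on simulated data. It covers counting error only, and total library depth was not given in the sources used here. Reads of 3 or fewer were set to 3 for a fold with that floor, which is not a lower limit of the fold. Every member region was counted. For each gene and table the text names the region nearest to a start, the densest, and those past 2-fold with an interval on 1 side of 0 and at least 20 reads, with regions overlapping them in the other table. Others were chosen after their values were seen. Members and lists were chosen with earlier results of these data known. Distances from the RefSeq start add the offset of the transcript start within GRCm38 to the authors' distance. Alternatives were centring, undoing the line, other fold limits, a floor, filters on density, reads and distance, and 1 region per gene.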

Additional observations from a re-analysis of the deposited data

Results flagged for a closer look

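At the Loxl3 promoter the T libraries held 37 reads with TGF-b and 23 once the siRNA was added (log2 ratio -0.19, -0.95 to 0.53), and the S libraries 9 and 18 (1.01, -0.04 to 2.21). It was singled out because the libraries of the 2 sets moved in opposite directions at regions that overlap. Both intervals included 0, and the difference was not tested, since each treatment had 1 library per set.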

How the results depend on the processing

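No paired analysis was possible because each treatment had 1 library per set and the labels gave no replicate numbers, so nothing could be left out in turn. The median of all regions moved without the authors' line from -0.65 to -0.78 and from -0.20 to 0.36 for TGF-b against NC in the T and S sets, and from 0.97 to 0.51 and from -0.21 to -0.29 for the siRNA.

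For TGF-b against NC in the T set, the 4 higher regions became 9 when centred on the median of all regions, 7 at 1.5-fold, 2 above the median mean density, 0 with 1 region per gene and 2 within 10 kb of a start. The 13 lower became 7 above the median density, 2 with 1 region per gene and 8 within 10 kb. In the S set the 1 higher became 0 at 4-fold, with the floor of 3 reads and with at least 10 reads, and the 3 lower became 1 with at least 10 reads. No region was above the median density there, so no value was had.

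For the siRNA in the T set, the 9 higher became 5 when centred, 5 at 4-fold, 4 above the median density, 4 with at least 10 reads and 1 with 1 region per gene. The 5 lower became 15 when centred, 9 with the line undone, 9 at 1.5-fold, 2 at 4-fold, 2 with the floor, 2 above the median density, 3 with at least 10 reads, 0 with 1 region per gene and 2 within 10 kb. The median of 0.12 turned to -0.85 when centred, -0.32 with the line undone and -0.16 with 1 region per gene. In the S set the 4 higher became 1 at 4-fold, 1 above the median density and 2 with 1 region per gene, and the 1 lower became 0 with the floor, above the median density and with at least 10 reads. Fewer regions remain under the filters by construction, and the cause of the other changes was not tested.

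Of 42 named regions, 2 whose interval had excluded 0 changed sign when centred, Lox 29107 bp upstream (-0.11) and Thbs1 at its start (-0.15), both for the siRNA in the T set. A further 10 moved beyond their interval under centring, and none did with the line undone or the floor.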
